A study of Arabidopsis thaliana with 6 samples.

Results

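SIM (SIAMESE) and AT1G08180 (SMR2, a relative of SIM) were followed through the first hours of lateral root initiation in Arabidopsis thaliana. They were taken by gene identity as the probe sets paired with these 2 genes, and each has 1 of the 22746 probe sets that are not array controls (22810 with them). Root cells were profiled on 6 one-colour Affymetrix arrays, 1 per sample, with 2 biological replicates in each of 3 groups. All seedlings carried the J0121 enhancer trap, in which GAL4 drives GFP in the xylem pole pericycle, and were raised on 10 µM NPA, an auxin transport inhibitor that holds this layer before S phase. The 0 h cells were taken at 72 hours after germination, and the 2 h and 6 h cells after transfer to 10 µM NAA, a synthetic auxin, at 74 and 78 hours after germination. GFP-positive cells were collected by fluorescence-activated sorting, and the labels give the total RNA as undetectable in amount before labelling. Each later group was older, had been transferred from the medium it was raised on and was on NAA, and these cannot be told apart.

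SIM and its relatives are small plant proteins that bind complexes of cyclins with cyclin-dependent kinases (CDKs) and hold back entry into mitosis. SIM is best known from leaf hairs, where its loss lets a cell that would otherwise replicate its DNA without dividing go on to divide. Xylem pole pericycle cells are the founder cells of lateral roots, and auxin drives them out of their arrest into division.

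The signals are linear MAS5 intensities in arbitrary units, scaled by the authors to the same trimmed mean on every array. Tests were run with limma on log2(signal + 5) over all 22746 probe sets and all 6 arrays, with Benjamini-Hochberg adjustment over all of them; adjusted p-values under 0.05 are referred to as calls. With 2 arrays a group, p-values rest on a spread borrowed across probe sets and groups.

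SIM had a signal of 137.2 and 271.5 before NAA (0 h), 213.5 and 211.8 after 2 h and 15.9 and 52.2 after 6 h (replicates 1 and 2). Both arrays at 6 h lay below all 4 earlier arrays, while the 0 h and 2 h values overlapped. The mean was 204 ± 95 for the 0 h arrays, 213 ± 1.2 for the 2 h arrays and 34.1 ± 25.7 for the 6 h arrays (SD, n = 2 each). In order of level, 2 h and 0 h were neighbours that did not differ beyond their spread, and 6 h stood below them.

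Relative to the other transcripts on the same array, SIM was above the array median before 6 h and below it at 6 h. Its signal exceeded 56.2% and 74% of probe sets at 0 h, 70.9% on both arrays at 2 h, and 21.4% and 35.5% at 6 h. On the array of replicate 1 at 2 h, for which detection calls were deposited, SIM was called present with a detection p-value of 0.001221 in the authors' deposited table. On that array 54.8% of all probe sets were called present, and probe sets within 20% of the 2 SIM signals at 6 h were called present in 1.91% and 38.1% of cases. Signals as low as those of SIM at 6 h were thus mostly below detection there, so the low end of the SIM change is less well measured than its direction.

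**Figure D1:**
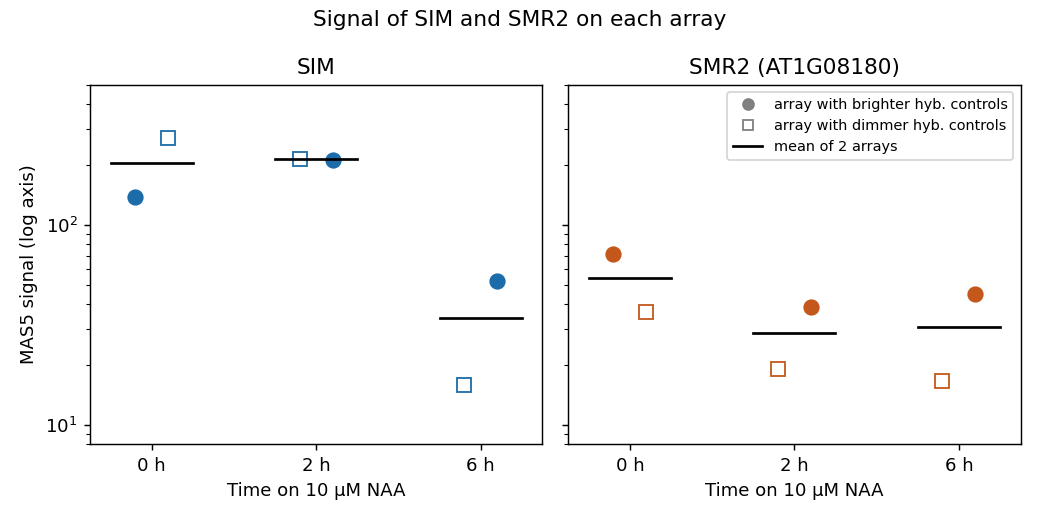
Signal of SIM (left) and SMR2 (right) on each array, on a log axis, at 0, 2 and 6 h on NAA. Filled circles are the arrays with brighter hybridisation controls, open squares the dimmer ones, and bars the arithmetic mean of 2 arrays. SIM lies at 137.2 to 271.5 on the 4 arrays before 6 h and at 15.9 and 52.2 at 6 h, and SMR2 overlaps between all times.

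After 6 h on NAA, SIM fell relative to 0 h, to a mean signal of 34.1 at 6 h against 204 at 0 h. The log2 change was -2.52 ± 0.59 (SE, n = 2 arrays per group; 95% interval -3.8 to -1.24), or 5.73-fold lower on this scale (adjusted p = 0.00838, limma). The fold is an estimate that rests on the dim 6 h signals and moves with the pseudocount. Of all probe sets 9.59% were called lower and 9.6% higher in this comparison, and the SIM change lay among the lowest 3.02%. Both arrays at 6 h lay below both at 0 h for 30.1% of all probe sets. The call was lost without replicate 2 at 0 h (log2 change -2.04, adjusted p = 0.0859, limma) and without replicate 1 at 6 h (-1.79, adjusted p = 0.0683), the arrays with the highest and the lowest SIM signal. It was also lost when the spread was not allowed to depend on brightness (adjusted p = 0.052).

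Relative to 2 h, SIM also fell by 6 h, to 34.1 at 6 h against 213 at 2 h. The log2 change was -2.65 ± 0.59 (95% interval -3.93 to -1.38; adjusted p = 0.0193, limma), in a comparison that called 3.07% of probe sets lower and 1.77% higher. This comparison shares the 6 h arrays with the one against 0 h. The change lay among the lowest 0.98% of all probe sets, and 20.5% of all probe sets had both 6 h arrays below both 2 h arrays. The call was lost without replicate 1 at 6 h (log2 change -1.93, adjusted p = 0.132, limma) or without replicate 1 or 2 at 2 h (adjusted p = 0.151 and 0.143), and with a spread that did not depend on brightness (adjusted p = 0.137).

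Between 2 h and 0 h the SIM change was 0.13 ± 0.59 on the log2 scale (95% interval -1.14 to 1.41; adjusted p = 0.939, limma), while 2.01% of all probe sets were called lower and 3.87% higher. The interval reaches from a 2.21-fold reduction to a log2 rise of 1.41, so changes within that range at 2 h were not excluded by these arrays. In the F test over the 3 times SIM was called (adjusted p = 0.0091, limma), as were 16.5% of all probe sets. Without replicate 1 at 6 h the adjusted p of the F test was 0.0978.

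**Figure D2:**
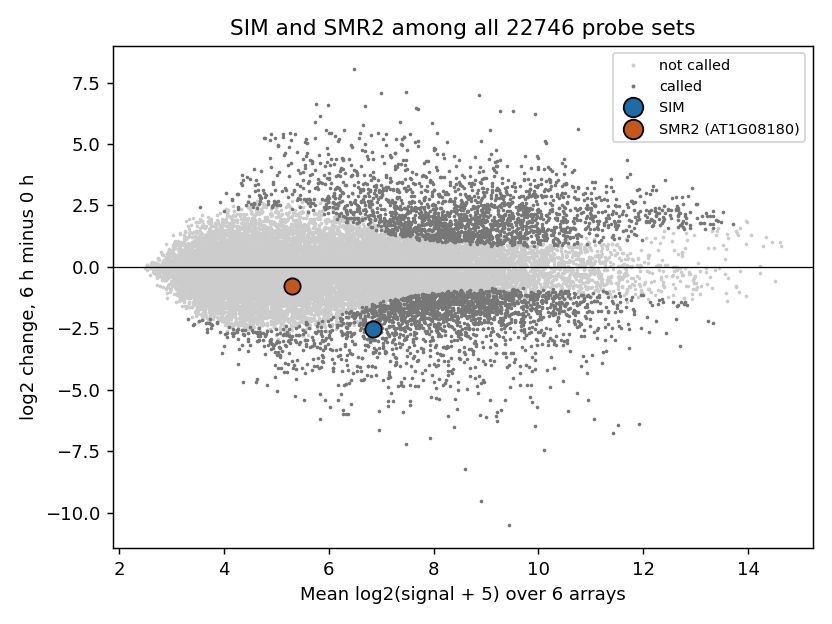
Log2 change between 6 h and 0 h (6 h minus 0 h, vertical) against mean log2(signal + 5) over the 6 arrays (horizontal) for all 22746 probe sets, with called ones in dark grey. SIM lies among the called falls at -2.52, and SMR2 lies at -0.78 within the cloud of dim probe sets that were not called.

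AT1G08180 (SMR2), the low-signal member, had a signal of 71.8 and 36.7 on the 0 h arrays, 19.1 and 38.7 on the 2 h arrays, and 16.6 and 45.1 on the 6 h arrays (replicates 1 and 2). The 3 groups overlapped in every pairing. Mean signals were 54.2 ± 24.8 at 0 h, 28.9 ± 13.9 at 2 h and 30.8 ± 20.2 at 6 h (SD, n = 2 arrays each), and no neighbours in this order differed beyond their spread. The probe set was brighter than 21.8% to 38.9% of probe sets, depending on the array. On the array of replicate 1 at 2 h it was called absent in the authors' deposited table, with a detection p-value of 0.246094. Detection calls of the other 5 arrays were not used here.

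No comparison called SMR2. Its log2 change was -0.8 ± 0.83 at 2 h relative to 0 h (95% interval -2.61 to 1; adjusted p = 0.683, limma). At 6 h relative to 0 h it was -0.78 ± 0.83 (95% interval -2.59 to 1.02; adjusted p = 0.599). Between 6 h and 2 h it was 0.02 ± 0.83 (95% interval -1.79 to 1.82; adjusted p = 0.996), and the adjusted p of the F test was 0.753. These intervals are wide enough to hold a 6.01-fold reduction at 6 h relative to 0 h as well as no change, and the change of -2.52 seen for SIM lies inside the interval of SMR2.

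The changes of the 2 genes were compared within arrays. The SIM change minus the SMR2 change was -1.74 on the log2 scale at 6 h relative to 0 h and -2.67 at 6 h relative to 2 h. The exact two-sided permutation p was 0.333 in both cases, which is the smallest that 2 arrays against 2 allow. This test could not have passed the threshold, so whether the 2 genes changed by different amounts could not be judged from it.

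The replicates of SIM spread more than is typical of transcripts of its brightness. Its residual SD was 0.71 on the log2 scale, against a median of 0.44 among the 3567 probe sets within 0.5 log2 units of its mean level. SMR2 also had a residual SD of 0.71, below the median of 0.8 among 3490 probe sets as dim as itself. Replicates of SIM differed by 0.96 at 0 h, 0.01 at 2 h and 1.45 at 6 h on the log2 scale, and those of SMR2 by 0.88, 0.86 and 1.21.

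In each group the hybridisation controls (bacterial and phage transcripts added before hybridisation) were brighter on 1 array, namely replicate 1 at 0 h and replicate 2 at 2 h and at 6 h. Their geometric mean signal at 0, 2 and 6 h was 13624, 6000 and 10425 on the brighter arrays and 2609, 1780 and 2798 on the dimmer ones. SMR2 was higher on that array at all 3 times, a pattern that 22.9% of similarly dim probe sets and 18.6% of all probe sets shared. On the brighter arrays SMR2 read 71.8, 38.7 and 45.1 at 0, 2 and 6 h, and on the dimmer ones 36.7, 19.1 and 16.6, so the 0 h array was the highest in both sets. SIM read 137.2, 211.8 and 52.2 on the brighter arrays, a log2 change of -1.31 at 6 h relative to 0 h. On the dimmer arrays it read 271.5, 213.5 and 15.9, a change of -3.73. The lowest SIM value of each set was that at 6 h, and with 1 array per time in a set the sizes could not be tested against each other. With the hybridisation controls as a block, SIM was called at 6 h relative to 0 h (adjusted p = 0.0183, limma) and relative to 2 h (adjusted p = 0.0439).

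The actin controls set the 6 h arrays apart from both earlier times, the ubiquitin controls from 0 h but not from 2 h, and the GAPDH controls from neither. Actin control probe sets gave 3'/5' signal ratios, which rise when transcripts are degraded or short, of 1.4 to 2.22 on the 0 h arrays, 1.37 to 2.98 on the 2 h arrays and 3.84 to 4.48 on the 6 h arrays. For ubiquitin these ratios spanned 5.99 to 8.31, 6.13 to 9.71 and 8.81 to 10.7, and for GAPDH 2.68 to 5.78, 3.93 to 4.73 and 3.42 to 4.37, so the 6 h range overlapped that at 2 h in both. The part of the actin and ubiquitin ratios in the result was not tested. The median change of all probe sets was -0.23 at 2 h and -0.15 at 6 h relative to 0 h, and 0.11 at 6 h relative to 2 h. With each array centred on its median, SIM changed by -2.4 at 6 h relative to 0 h and by -2.8 relative to 2 h, and was called in both (adjusted p = 0.0225 and 0.0308, limma). That centring gave 871 higher and 160 lower calls at 2 h relative to 0 h (84.5% higher), against 881 and 458 with the authors' scaling (65.8% higher).

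The sorted cell type could be checked only in part, because 0 of the 6 listed stele and pericycle markers, 0 of 4 xylem markers and 0 of 2 root cap markers are paired with a probe set here. The 1 of 5 endodermis markers that is paired, GSO1, a receptor kinase gene of the Casparian strip, read 601.1 and 828.6 before NAA (0 h), 553.4 and 1212.5 after 2 h and 75.6 and 26.1 after 6 h. GSO1 fell at 6 h relative to 0 h, with a log2 change of -3.83 ± 0.48 (adjusted p = 0.000102, limma). Summed signals of the 2 cortex markers ran from 153.1 to 173.7 at 0 h, 62.3 to 128.2 at 2 h and 77.8 to 89.9 at 6 h. Of these 2, AT1G09750 read 41.2 and 68.8 at 6 h, against 164.6 and 137.4 at 0 h, without overlap. Its log2 change of -1.41 ± 0.61 was not called (adjusted p = 0.136 and unadjusted p = 0.0382, limma). The other, AT1G62500, read 36.6 and 21.1 at 6 h, against 9.1 and 15.7 at 0 h (log2 change 0.95 ± 0.8, adjusted p = 0.487, limma), also without overlap but in the other direction. Of all probe sets 30.1% had both 6 h arrays below both 0 h arrays, and 23.4% had both above. Summed signals of the 2 paired epidermis markers of 5 ran from 87 to 119.3, 35.3 to 65.6 and 73.8 to 156.4. The phloem marker, 1 of 4, ran from 53.8 to 56, 52 to 77.7 and 41.3 to 119.9. Of these 6 markers only GSO1 was called in a comparison. On the array of replicate 1 at 2 h, GSO1, AT1G09750 and the phloem marker AT3G12730 had a detection call of present. AT1G62500 and both epidermis markers, EXPA7 and EXPA18, had a detection call of absent there. The part of GSO1, AT1G09750 or other cell types in the SIM fall was not tested. In sorted populations fewer SIM-expressing cells and less SIM RNA per cell cannot be told apart.

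Of 14 genes listed as the SIM/SMR family from general knowledge, 9 are paired with a probe set. The annotation gives a symbol only for SIM, and the other relatives are named here by locus. At 6 h 1 of the 9 was called lower and 0 higher relative to 0 h, and likewise relative to 2 h, and the called gene was SIM in both. Over all probe sets 9.59% were called lower relative to 0 h and 3.07% relative to 2 h, so with 9 genes the share at 6 h relative to 0 h is near that of the whole array. At 2 h 0 of 9 were called in either direction, against 2.01% of all probe sets lower and 3.87% higher, and 0 of the 9 passed at an unadjusted p under 0.05. The family's median log2 change was 0.13 at 2 h and -0.78 at 6 h relative to 0 h, against -0.23 and -0.15 over all probe sets. These medians are the values of SIM at 2 h and of SMR2 at 6 h. The relatives other than these went both ways at 6 h relative to 0 h. Their changes were -1.46, -1.11 and -1.08 on the lower side and 0.22, 0.28, 0.66 and 0.8 on the higher side, so the medians describe no common fall.

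The 7 relatives other than SIM and SMR2 were dim or variable. AT5G02420 read 186.9 and 70.3 on the 0 h arrays, 60.6 and 65.2 on the 2 h arrays, and 44.5 and 60 on the 6 h arrays. All later arrays lay below both 0 h arrays, with a log2 change at 6 h of -1.08 ± 0.65 that was not called (adjusted p = 0.304, limma). Of all probe sets 30.1% lay so at 2 h taken alone, and the same share at 6 h taken alone. The share that lay so at both times was not counted. AT2G28870 had the lowest unadjusted p of the relatives at 6 h, with signals of 15.2 and 23 before NAA (0 h), 6.8 and 6.5 after 2 h and 3.3 and 4 after 6 h, and a log2 change of -1.46 ± 0.69 relative to 0 h (adjusted p = 0.176).

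AT5G40460, like SIM, was called present on the array of replicate 1 at 2 h, and the other 7 of the 9 were called absent there. It read 67.8 and 60.8 on the 0 h arrays, 83.3 and 149 on the 2 h arrays, and 85.3 and 126.8 on the 6 h arrays, and its log2 change at 6 h relative to 0 h was 0.66 ± 0.56 (adjusted p = 0.495, limma). AT2G28330 read 22.5 and 66.2, 94.9 and 110.5, and 74.1 and 70.2 at the 3 times. Both of these genes were higher on every later array than on either 0 h array, without passing the test. Of all probe sets 17.1% had both 2 h arrays, and 23.4% both 6 h arrays, above both at 0 h, each time taken alone. The share higher at both times was not counted.

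Of the remaining relatives, AT5G59360 read 30.4 to 87.8 over the 6 arrays with overlapping groups. AT1G10690 read 66.2 on replicate 1 at 2 h, 34 on replicate 1 at 0 h and 4.6 to 8.7 on the other 4 arrays. AT2G37610 stayed between 0.8 and 3.4, at the bottom of the scale.

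**Figure D3:**
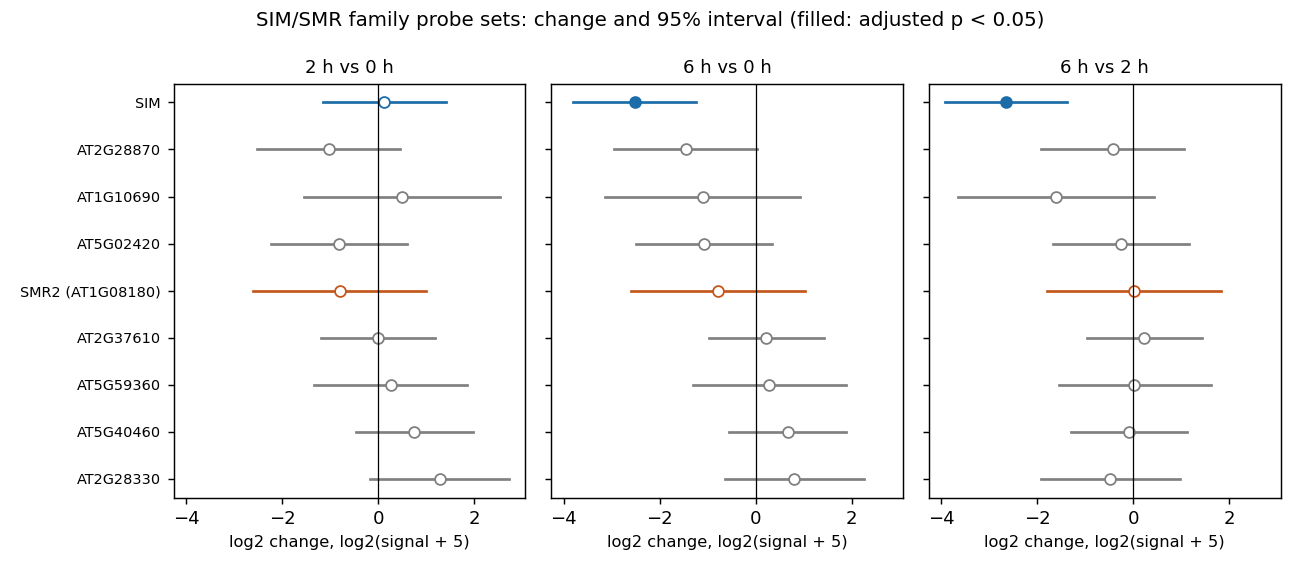
Log2 change with its 95% interval for the 9 paired SIM/SMR family genes in the 3 comparisons, later time minus earlier time, ordered by the change at 6 h relative to 0 h. Filled points passed an adjusted p of 0.05, which only SIM did, at 6 h relative to 0 h and to 2 h.

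The partners of these inhibitors were largely out of reach. None of the 7 listed KRP genes (the other plant family of CDK inhibitors), 10 D-type, 10 A-type and 11 B-type cyclins, 7 regulators of the anaphase-promoting complex, or 13 E2F, DP, RBR, MYB3R and SOG1 genes is paired with a probe set here, and they were not analysed here. Of 18 genes listed as CDKs and their direct cofactors 1 is paired, AT1G67580. It read 367.6 and 628.2 before NAA (0 h), 598.4 and 338.5 after 2 h and 416.5 and 303 after 6 h, with overlapping groups and a log2 change at 6 h relative to 0 h of -0.43 ± 0.37 (adjusted p = 0.501, limma).

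The genes whose profiles came closest to each member were found among 7941 probe sets with 1 locus and a mean signal of at least 50. Likeness was the root mean squared difference of log2(signal + 5) profiles over the 6 arrays, each centred on its own mean. The closest to SIM were AT4G02940 (0.2 log2 units, Pearson r = 0.99), AT1G21520 (0.26, r = 0.98), AT5G59540 (0.28, r = 0.98), RALFL32, which encodes a RALF-like peptide (0.29, r = 0.98), and AT4G17100 (0.35, r = 0.97). These correlations over 6 arrays describe the selected genes, and the points share arrays and time points. RALFL32 read 843.4 and 888.7 on the 0 h arrays, 852.2 and 991.6 on the 2 h arrays, and 101.6 and 211.1 on the 6 h arrays, with the same order of replicates at 6 h as SIM.

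For SMR2 the closest were AT1G23520 and AT1G62950 (0.13 each, r = 0.98), FCLY, which encodes a farnesylcysteine lyase (0.14, r = 0.98), AT3G45210 (0.15, r = 0.97) and LHCB4.3, a gene of the light-harvesting antenna (0.15, r = 0.97). FCLY read 277.9 and 140.5 before NAA (0 h), 95 and 141.4 after 2 h and 82.7 and 152.3 after 6 h. All 5 were higher on the array with brighter hybridisation controls at each time, as SMR2 was, which their selection by likeness over the same 6 arrays brings with it.

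**Figure D4:**
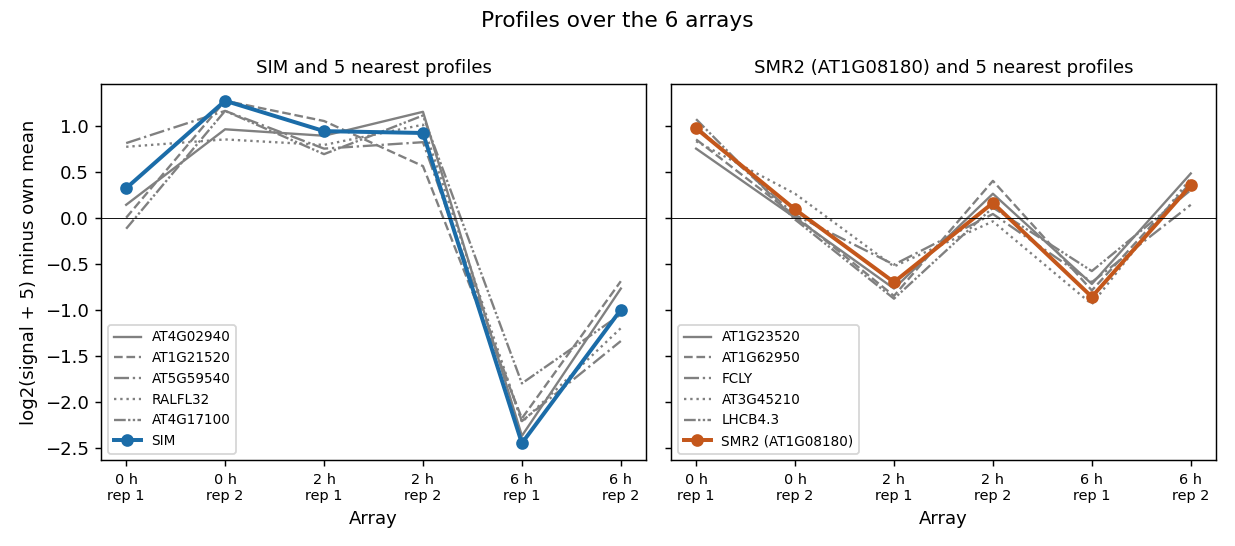
Profiles of SIM (left) and SMR2 (right) in colour and of their 5 closest probe sets in grey, as log2(signal + 5) minus each gene's own mean, on the 6 arrays. The SIM set is low on both 6 h arrays, and the SMR2 set alternates with the brightness of the hybridisation controls within each time.

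In the RefSeq gene order of TAIR10.1, the nearest protein-coding neighbours of SIM with a paired probe set were AT5G04460, AT5G04480 and AT5G04440. Their log2 changes at 6 h relative to 0 h were -1.41 (adjusted p = 0.0383, limma), -0.93 (0.125) and 1.22 (0.102), so 1 of the 3 was called, and it was lower, beside 9.59% of all probe sets called lower and 9.6% called higher. The neighbour of SMR2 with a paired probe set, AT1G08170, had a change of -0.99 (0.501).

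**Figure D5:**
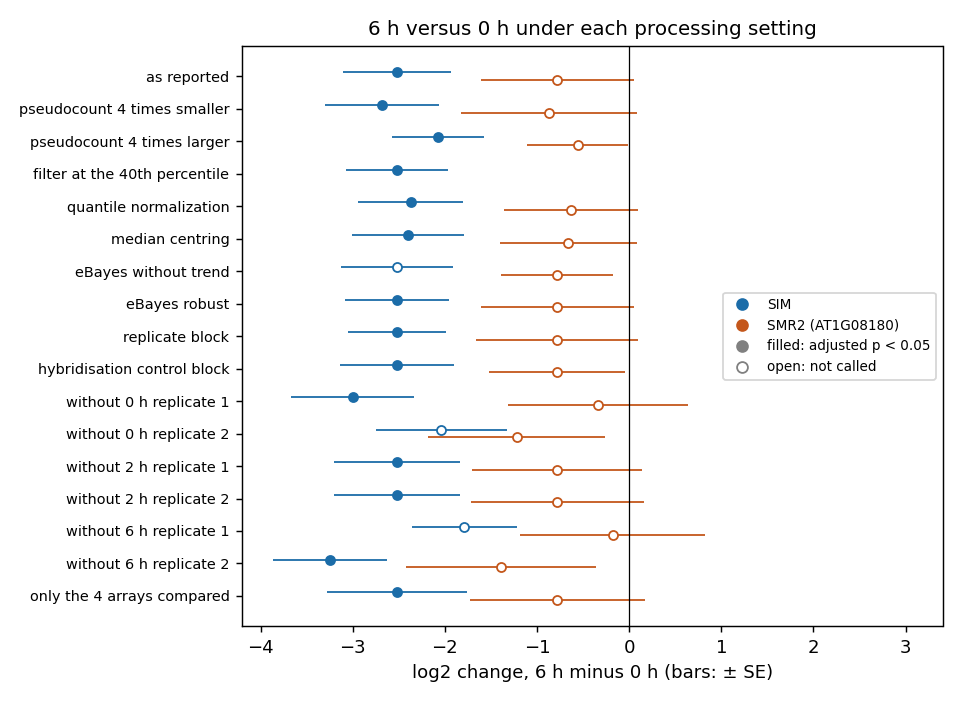
Log2 change at 6 h relative to 0 h with its SE for SIM and SMR2 under each processing setting. Filled points passed an adjusted p of 0.05. SIM stays between -3.25 and -1.79 and was not called under 3 settings, and SMR2 stays between -1.39 and -0.18 and was never called.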

How the data were processed

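The signal intensities were deposited as linear values, 1 per probe set and array, and MAS5 is named per the submitters' processing notes, version not given in the sources used here. On every array the deposited values had a mean of 250 after trimming 2% at each end, which shows their scaling. A detection p-value per probe set was deposited by the authors for replicate 1 at 2 h, and served as description. Of 22810 probe sets, 64 controls were left out. Signals were taken as log2(signal + 5), on which changes of dim genes are understated, with no filter, so that both genes were tested alike. They were fitted with limma 3.58.1 (lmFit, eBayes with trend) in R 4.3.3 over all 6 arrays. The code of the fit was first tested on simulated data, from which no value is given. The fit had 3 residual and a median of 9.79 prior degrees of freedom. Arrays have no read depth, and their number limits the precision; array medians ran from 75.8 to 109.9, and replicates correlated at 0.881, 0.932 and 0.912 at 0, 2 and 6 h.

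Of all probe sets 13513 are paired with 1 gene, 503 with several, and 8794 are unnamed here. Among the first, 13436 matched a TAIR10.1 locus. The genes, lists and tests were chosen with earlier results of these data known. Named were both genes, all paired SIM/SMR and KRP relatives, the 5 closest profiles of each gene and up to 4 called members of each other cell-cycle list, of which there were 0. AT1G67580, the only paired gene of those lists, and the neighbouring genes were chosen after the data were seen. Alternatives were another pseudocount, filter, scaling or variance model, blocks, and fewer arrays.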

Additional observations from a re-analysis of the deposited data

How the results depend on the processing

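SIM kept its direction at 6 h under all 16 alternatives run against each of 0 h and 2 h. It was called under 13 and 12 of them. Without the intensity trend the changes of -2.52 and -2.65 were not called, nor was SIM in the F test (adjusted p = 0.0791, limma). Leaving out 1 array gave -3.25 to -1.79 against 0 h, -3.38 to -1.93 against 2 h and an F test adjusted p of 0.00813 to 0.0978. At 2 h relative to 0 h SIM ranged from -0.35 to 0.61, with the sign turned without replicate 1 at 0 h. SMR2 was never called (15 alternatives a comparison). At 6 h relative to 2 h it changed sign with quantile normalization (-0.1), median centring (-0.13) and when arrays were left out (-0.59 to 0.63). The filters at the 40th and 60th percentile left out SMR2, and the stricter one also SIM. Counts of called probe sets without the trend were 1 at 2 h and 2326 at 6 h relative to 0 h, and 159 at 6 h relative to 2 h, against 1339, 4365 and 1102 as reported. Leaving out 1 array gave 515 to 1171, 2710 to 3906 and 509 to 1392. Replicate numbers are shared between groups, and deviations of same-numbered arrays correlated at -0.01, 0 and 0.09. The brighter hybridisation controls were on replicate 1 at 0 h but on replicate 2 at 2 h and 6 h. These correlations therefore cannot show whether same-numbered arrays shared more than a number. With the replicate block SIM changed by -2.52 and -2.65 (adjusted p = 0.0032 and 0.00706, limma) and SMR2 by -0.78 at 6 h relative to 0 h. The block gave 1848, 4913 and 1558 called probe sets, more than as reported in each comparison.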
